A study of Mus musculus with 3 samples.

Results

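The axon guidance ligands and receptors are the secreted and membrane-bound cues that steer growing axons, together with the cell-surface proteins that read them. They were picked by gene name on the array: the class 3 to 7 semaphorins, plexins, neuropilins, Eph receptors, ephrins, Slits, Robos, netrins, netrin-Gs and UNC5 receptors, with Dcc, Neo1 and Draxin. The rule found 72 genes on 104 probes, of 22328 genes and 55681 probes in all. No probe carried the name Draxin. Of the 72 genes, 37 code for ligands and 35 for receptors, and 26 had more than 1 probe.

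Levels came from primary cells of the whole cerebrum of C57BL6/J mice at embryonic day 18, a mixed culture without a sort, grown in neurobasal medium with B27. On day 10 in vitro 1 culture received 1 mM valproate, 1 received 100 µM lamotrigine and 1 received solvent only, each for 24 h, and all of them held 0.1% DMSO. Valproate, given for epilepsy and bipolar disorder, also inhibits class I histone deacetylases, while lamotrigine is an antiepileptic blocker of sodium channels. The RNA of each culture was read on 1 single-colour Agilent array, and the 3 arrays shared 1 slide. With 1 array per treatment no difference below has a replicate check and no p-value can be given. Precision is limited by how few arrays there are. The labels do not say how many embryos or dishes went into a culture.

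Guidance cues act in ligand-receptor families. Semaphorins signal through plexins, with neuropilins as the co-receptors of most secreted class 3 semaphorins. Ephrins are held on the membrane and signal through Eph receptor tyrosine kinases in cell contacts, and can also signal back into the cell that carries them. Slits repel axons through Robo receptors, while netrin-1 attracts axons through Dcc and repels them through UNC5 receptors. In embryonic cortex these families guide the corpus callosum and the thalamocortical tracts, and several of them later take part in synapse formation, in vessel growth and in myelinating cells.

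The results turn on 5 members, Efna1, Unc5b, Robo3, Plxnb3 and Sema3b, which were at least 2-fold apart between 2 of the arrays. Their probes are shown so that the measured stretch of each transcript can be found. Each line gives the first 30 bases of a 60-base probe in lower case, 5′ to 3′ as the array files hold it, with the position of the whole probe on the mm9 build. Robo3 has a pair of probes, and only the first of them was above background. Whether a probe lies in an exon or an untranslated region was not analysed here.
Efna1 probe, chr3:89075703-89075762, minus strand: gtacagtgtctgtatataaatgtgctgtat
Unc5b probe, chr10:60225398-60225457, minus strand: cctgttcgtccattctgtaaataacttgta
Robo3 probe 1, chr9:37224357-37224416, minus strand: tctaccgctggtagcaattcttctaggggt
Robo3 probe 2, chr9:37224780-37224839, minus strand: gattcatgcatctggtcaacattgaaattg
Plxnb3 probe, chrX:71017572-71017631, plus strand: aaagtgactgacctgtgaactagggccaca
Sema3b probe, chr9:107500686-107500745, minus strand: tgggtatggggtgaggcaggccaactgtac

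Promoters are shown for 4 of these genes because histone deacetylases act on chromatin at gene starts. RefSeq promoters on the GRCm38.p6 build were matched to 62 of the 72 members, 78 promoters in all, and the other 10 members had no entry, Sema3b among them. Each line below holds the 250 bases before a transcription start, 5′ to 3′ on the strand of the gene. Capitals mark the GC box GGGCGG on either strand, the site family of Sp1-type factors.
Efna1 start 1, chr3:89279646-89279895, minus strand: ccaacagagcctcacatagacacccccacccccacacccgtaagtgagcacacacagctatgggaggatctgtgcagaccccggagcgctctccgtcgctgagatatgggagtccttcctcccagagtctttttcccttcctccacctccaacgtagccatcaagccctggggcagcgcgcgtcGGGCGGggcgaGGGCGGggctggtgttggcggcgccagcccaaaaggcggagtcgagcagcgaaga
Efna1 start 2, chr3:89280952-89281201, minus strand: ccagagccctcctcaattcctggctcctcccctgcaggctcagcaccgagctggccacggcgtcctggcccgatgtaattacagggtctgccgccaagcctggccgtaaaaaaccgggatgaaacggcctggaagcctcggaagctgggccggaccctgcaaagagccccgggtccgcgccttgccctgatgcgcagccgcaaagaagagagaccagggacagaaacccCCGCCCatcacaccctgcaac
Unc5b, chr10:60831582-60831831, minus strand: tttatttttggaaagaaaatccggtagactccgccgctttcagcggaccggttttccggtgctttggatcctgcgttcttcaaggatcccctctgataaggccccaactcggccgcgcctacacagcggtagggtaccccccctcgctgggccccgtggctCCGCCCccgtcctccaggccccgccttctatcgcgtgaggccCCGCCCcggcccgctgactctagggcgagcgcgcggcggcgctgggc
Robo3, chr9:37433176-37433425, minus strand: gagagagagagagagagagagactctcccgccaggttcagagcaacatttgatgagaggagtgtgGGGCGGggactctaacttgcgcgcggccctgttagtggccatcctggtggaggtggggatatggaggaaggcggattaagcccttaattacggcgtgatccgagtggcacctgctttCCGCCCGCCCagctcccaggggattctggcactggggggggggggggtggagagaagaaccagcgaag
Plxnb3, chrX:73756853-73757102, plus strand: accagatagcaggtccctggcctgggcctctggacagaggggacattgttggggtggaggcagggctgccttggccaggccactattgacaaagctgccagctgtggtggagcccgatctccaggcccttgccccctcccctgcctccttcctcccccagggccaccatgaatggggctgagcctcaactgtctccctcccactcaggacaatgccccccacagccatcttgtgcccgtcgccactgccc

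The 3 genes that were higher with valproate have starts with more CG dinucleotides than the median promoter: 27 at Unc5b, 18 and 16 at the starts of Efna1, and 12 at Robo3. Plxnb3, which was lower, has 3 CG dinucleotides and no GC box in its window, although its GC content of 65.2% is close to the 66.8% of Unc5b. Over all 32851 promoters in the table the median was 6 CG dinucleotides (quartiles 2 and 16), and over the 78 member promoters it was 15.5 (quartiles 8 and 23). The count at Robo3 is below the member median, and a part of CG content in the differences was not tested. The GC box was present in 70.5% of member promoters (55 of 78) and 32.7% of all promoters. The other motifs searched on both strands were less frequent in member promoters than in all promoters: CCAAT in 28.2% against 33.8%, the cyclic AMP response element half-site TGACG in 9.0% against 17.8%, and the E-box CANNTG in 47.4% against 66.2%. Each motif was counted on its own, so a base can belong to several of them, and a match describes the sequence only.

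Levels are given as scaled signal, the background-subtracted intensity divided by the 75th percentile of its array and multiplied by 100. A gene is represented by its brightest probe, and differences are on the log2 scale. Signals of different genes come from different probes and are not compared with each other. The 75th percentile was 478 with valproate, 372 with DMSO and 388 with lamotrigine, and 0 spots were saturated. Detection means that most spots of a probe carried the scanner's flag for signal well above background. For a gene detected on 1 array of a pair the difference is a lower bound against the detection floor of the other array, or against the gene's own signal there if higher, and the floors were 3.9 (valproate), 5.3 (DMSO) and 4.64 (lamotrigine). Probes printed 10 times on each array gave a technical SD of a difference of 0.245 at scaled signals under 25, 0.125 from 25 to 100, 0.085 from 100 to 400 and 0.067 over 400, which leaves out differences between cultures, extractions and labelling.

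The culture expressed most of the guidance system. Each array detected 65 of the 72 members (90.3%), against 67.6% of all genes with valproate, 65.0% with DMSO and 66.4% with lamotrigine. In all 62 members were detected on 3 arrays. These counts, and those of members compared below, include Dcc by a probe that is not read as Dcc, as described with the netrin receptors. Ntng2, Plxnb3 and Robo3 were detected on 2 arrays, Epha10 only with valproate, Robo4 only with DMSO and Unc5d only with lamotrigine. The netrin Ntn5, the Eph receptor Epha1 and the secreted semaphorins Sema3d and Sema3g were not well above background on any array. The mixed makeup of the culture was visible in marker genes: all 10 neuron markers, all 8 astrocyte markers and all 5 fibroblast markers were detected on every array. Of 6 microglia and macrophage markers, Aif1, Csf1r and Itgam were detected on every array and Cx3cr1, P2ry12 and Ptprc on none, and of 7 endothelial and mural markers Kdr, Cdh5 and Pdgfrb were on every array and Cldn5 on none.

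Valproate was compared with DMSO to ask which neuronal genes respond to class I histone deacetylase inhibition, the purpose stated for the study. Most guidance genes differed little: Efna1 (ephrin-A1) was 2.43-fold and the netrin receptor Unc5b 2.1-fold higher with valproate, Robo3 was at least 3.3-fold higher, and Plxnb3 was at least 3.03-fold lower. Among the 63 members that both arrays detected, 2 reached 2-fold upwards, where the background was 2.11% of 14346 genes, and 0 reached it downwards, where it was 1.42%. The 2 members are 3.17% of the 63, so their share is near the background. With normexp background correction, which compresses differences of dim probes, none of the 4 genes kept a 2-fold difference: Efna1 was at 0.34, Unc5b at 0.89, Robo3 at 0.58 and Plxnb3 at -0.74. Of the 4 members with a bound, Robo3 was past 2-fold upwards, where 12% of 909 genes with a bound were, and Plxnb3 was past 2-fold downwards, where 5.61% were. In all 28 of the 63 members were above 0, against 39.5% of all genes. The median difference was -0.01 over the members, bounds included, and -0.07 over all genes, and the median absolute difference was 0.22 for members and for all genes.

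**Figure D1:**
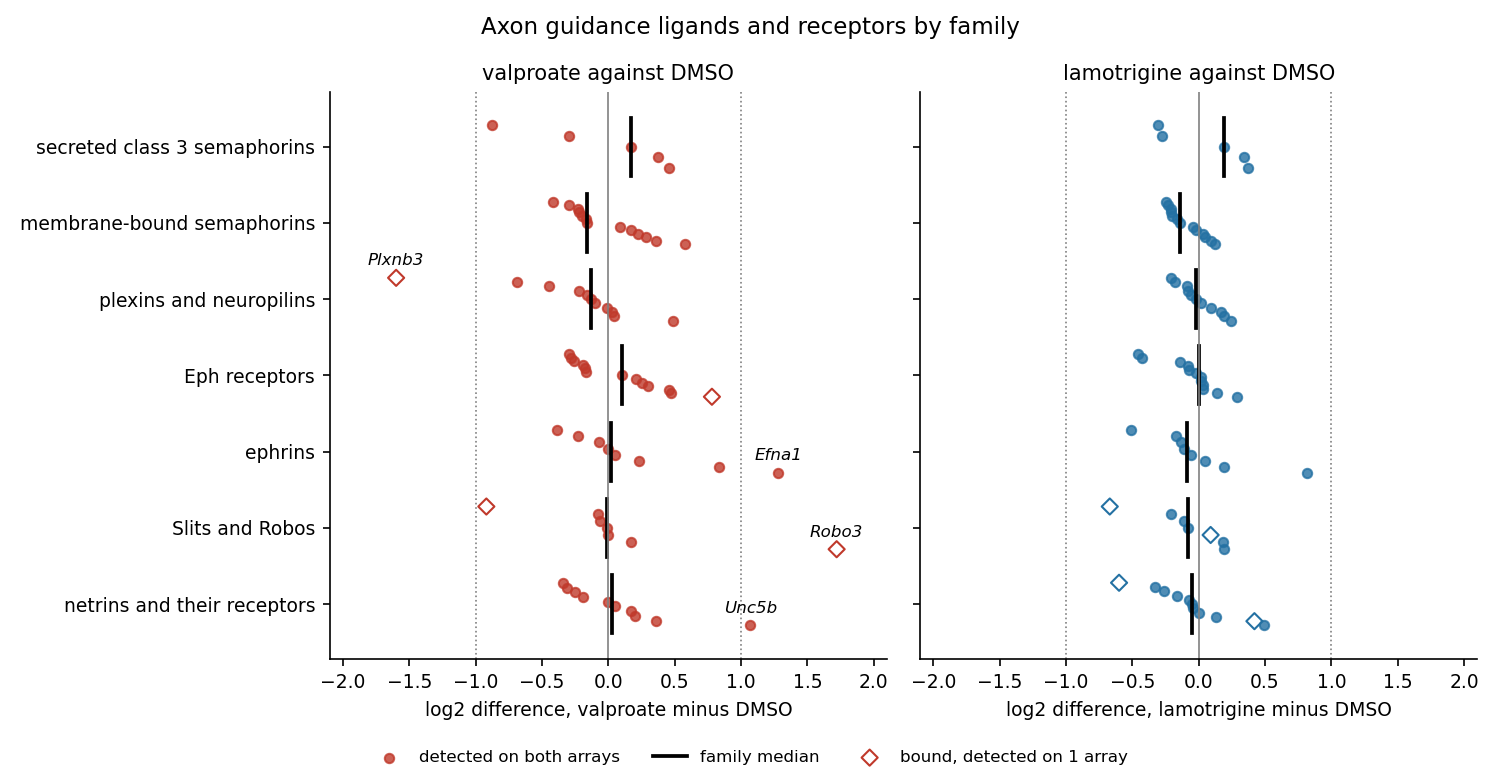
Each point is 1 member gene, placed by its log2 difference of valproate minus DMSO (left) or lamotrigine minus DMSO (right), with open diamonds for lower bounds and black bars for family medians. With valproate Efna1, Unc5b and Robo3 lie beyond the dotted 2-fold line on the right and Plxnb3 beyond it on the left, and with lamotrigine no member crosses a line. Spike-in scaling would shift points to the right, by 0.35 in the valproate panel and by 0.20 in the lamotrigine panel, where Efna1 would reach 1.03.

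The level of the whole family depends on how the arrays are scaled. When the arrays were set equal on 6 spike-in probes, every valproate minus DMSO difference became 0.35 higher, the median of all genes moved from -0.08 to 0.27 and that of the members from -0.01 to 0.34. The family counts above and below 0 that follow are not adjusted for this. Without spike-in scaling 39.5% of all genes were above 0 for valproate minus DMSO. Under spike-in scaling any negative valproate minus DMSO value closer to 0 than 0.35 turns positive, and only some of these are named below. For lamotrigine minus DMSO the limit is 0.20, and for valproate minus lamotrigine it is 0.15.

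Among the secreted class 3 semaphorins, 5 of 7 genes were detected on both arrays, 3 above and 2 below 0, with a median difference of 0.17. Sema3b, a secreted repellent that binds neuropilins, had a scaled signal of 54.0 with valproate, 99.4 with DMSO and 126 with lamotrigine. It was the lowest member detected on both arrays, 1.84-fold lower with valproate (log2 difference -0.88, technical SD 0.12), and the valproate array was the low one of the 3. Sema3e, which unlike its relatives can bind plexin-D1 without a neuropilin, had 18.0, 13.1 and 10.6 in the same order of arrays, a difference of 0.46 for valproate minus DMSO. Its valproate level was the highest and its lamotrigine level the lowest. With normexp correction its valproate minus DMSO difference was 0.05.

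Sema3f, the repellent read by Nrp2, had 533 with valproate, 411 with DMSO and 471 with lamotrigine (0.37), so the DMSO array was the lowest. Sema3a, the classical growth cone collapsing factor read through Nrp1, had 59.7, 73.5 and 60.4 (-0.30), and both drug arrays lay below DMSO. Sema3c had 156, 139 and 180 (0.17), with the DMSO array again the lowest. Sema3b and Sema3f both lie on chromosome 9, with their probes 83.1 kb apart on mm9 and 3 other genes with probes between them, and stood on opposite sides of 0 with valproate.

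The 13 membrane-bound semaphorins of classes 4 to 7 were all detected, 6 above and 7 below 0, with a median of -0.16 that became 0.19 under spike-in scaling, against 0.27 for all genes under that scaling. Sema6c, a transmembrane semaphorin of class 6, was the highest, with 481 with valproate, 322 with DMSO and 289 with lamotrigine (0.58), and its other probe gave 0.52. The valproate level stood above both other arrays. Sema4a, a transmembrane semaphorin also known from the retina and immune cells, was the lowest of the 13, with 423, 567 and 557 (-0.42), the valproate level lying below the others. Sema5a, a class 5 semaphorin with thrombospondin repeats, had 194, 151 and 127 (0.36). The remaining 10 lay between -0.30 and 0.28.

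For the receptors of semaphorins, 10 of the 11 plexins and neuropilins were detected on both arrays, 3 above and 7 below 0, and the median with the bound of Plxnb3 was -0.13, which became 0.22 under spike-in scaling. Plxnb3 (plexin-B3), a receptor of Sema5a found in the oligodendrocyte lineage, had 2.99 with valproate, which is not well above background, 11.8 with DMSO and 13.3 with lamotrigine. The drop below detection with valproate gives a bound of -1.60. Plxnb1, the receptor of Sema4d, had 154, 247 and 282, and was 1.61-fold lower with valproate (-0.69, technical SD 0.09). Both of these plexins were thus lowest on the valproate array, while Plxnb2, the third plexin-B, had 2816, 2754 and 3264 (0.03).

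Plxnd1, the plexin that reads Sema3e, was the highest receptor of the semaphorin system, with 1859 with valproate, 1320 with DMSO and 1300 with lamotrigine (0.49), and its other probe gave 0.73. The valproate level stood apart from the other arrays, which differed little. The 4 plexin-A receptors, partners of neuropilins and of class 6 semaphorins, were all below 0, from -0.10 for Plxna1 to -0.45 for Plxna4 (488, 668 and 578), and with spike-in scaling only Plxna4 would stay below 0. Of the neuropilins, Nrp1 had 29.9, 34.8 and 33.0 (-0.22). Nrp2 had 1112, 1085 and 961 (0.04), and its other probe gave -0.31. Plxnc1, the plexin of Sema7a, had 748, 752 and 764 (-0.01), and Sema7a itself was at -0.20.

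Markers of the oligodendrocyte lineage and of astrocytes had medians below 0 with valproate. Of 10 oligodendrocyte lineage markers, 9 were detected on the valproate array and 10 on each other array. Of those 9, 6 were below and 3 above 0, and the median with the bound of Mag was -0.47. The summed scaled signal was 4166 with valproate, 4639 with DMSO and 4135 with lamotrigine, of which Olig1 alone gave 2861, 3004 and 2762. Gpr17, a receptor of differentiating oligodendrocyte precursors, had 18.7 with valproate, 251 with DMSO and 178 with lamotrigine (-3.75), Mag had 4.21, not well above background, against 10.7 and 10.3. Mbp (0.60), Cspg4 (0.37) and Olig2 (0.22) were above DMSO and Olig1 was at -0.07. Of 8 astrocyte markers 7 were below 0, with a median of -0.50, and Aqp4 (-1.62) and Aldoc (-1.37) were the lowest. The summed signals were 20832, 40953 and 40292, of which Aldoc alone gave 10101, 26045 and 25677. A part of the oligodendrocyte lineage and astrocyte markers in the values of Plxnb3, Plxnb1 and Sema3b was not tested. The other marker lists had medians of -0.29 for neurons, -0.02 for excitatory neurons, -0.17 for inhibitory neurons and -0.11 for neural progenitors. Fibroblasts were at -0.39, microglia at 0.08, and endothelial and mural cells at 0.04 with bounds included. In a mixed culture fewer cells of a type and less RNA per cell cannot be told apart.

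**Figure D2:**
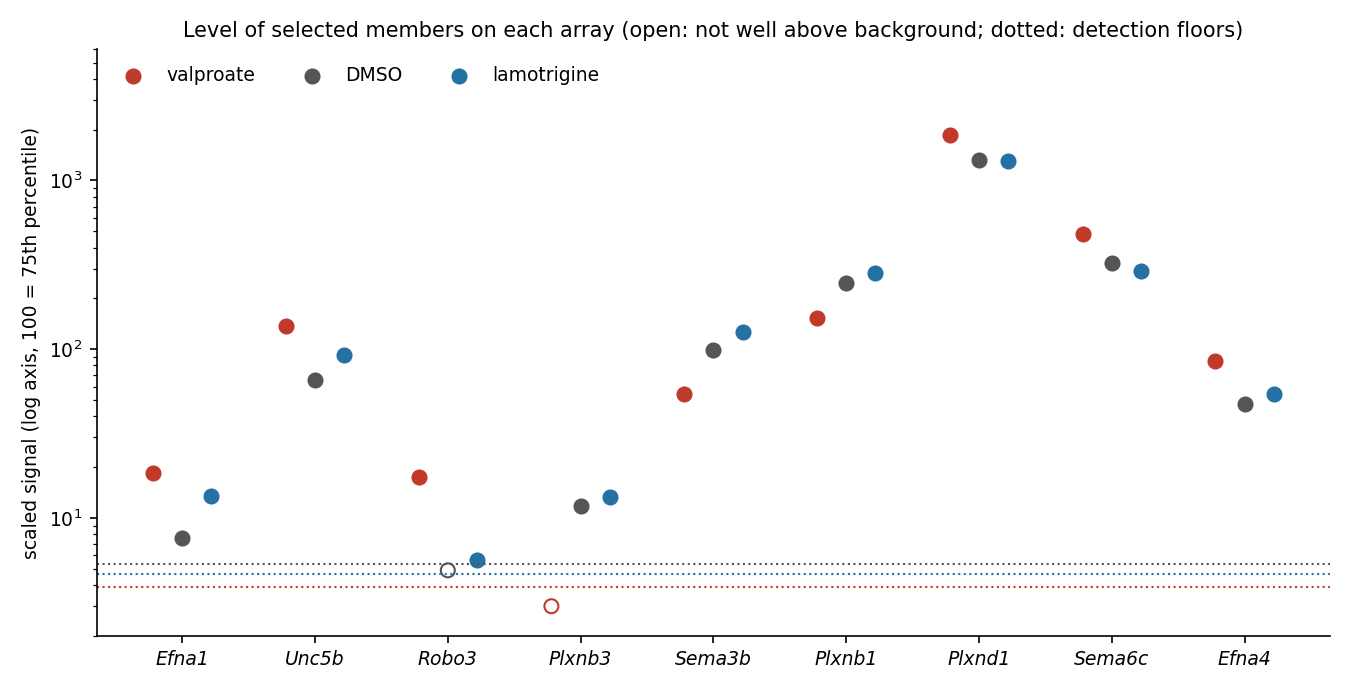
The scaled signal of 9 members (log axis, 100 is the 75th percentile of an array) on the valproate, DMSO and lamotrigine arrays, 1 point per array, with open circles for signals not well above background and dotted lines for the detection floors. Efna1, Unc5b and Robo3 show the valproate point on top (18.5, 138 and 17.5), and Plxnb3, Sema3b and Plxnb1 show it lowest (2.99, 54.0 and 154).

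Ephrin ligands were split by class. The 5 GPI-anchored ephrin-A ligands had a median difference of 0.23, and the 3 transmembrane ephrin-B ligands of -0.07, which would turn positive with spike-in scaling, as would the median of all genes. Efna1, the preferred ligand of EphA2 and a ligand found on endothelial cells and neurons, had a scaled signal of 18.5 with valproate, 7.6 with DMSO and 13.5 with lamotrigine. The DMSO array was the low one, and the difference of 1.28 for valproate exceeded the technical SD of 0.25. Efna4 had 84.8 with valproate, 47.6 with DMSO and 54.4 with lamotrigine, and was 1.78-fold higher with valproate (0.83). Efna2 was the lowest ephrin, with 59.1, 77.6 and 54.5 (-0.39), below DMSO on both drug arrays.

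Efna1, Efna3 and Efna4 lie close together on chromosome 3, with probes 43.2 kb and 19.1 kb apart on mm9. The brightest probe of Efna3 gave 65.8 with valproate, 65.9 with DMSO and 58.4 with lamotrigine (0.00), and its other probe gave 42.1, 24.5 and 25.1 (0.78). Efna3 thus stood with its neighbours on 1 probe and level with DMSO on the other. Efna5, the ephrin of retinal and cortical maps on chromosome 17, had 171, 145 and 133 (0.23). Of the ephrin-B ligands, Efnb1 had 1053, 1017 and 941 (0.05), Efnb2 456, 478 and 495 (-0.07) and Efnb3, a midline ligand of the corticospinal tract, 2092, 2459 and 2357 (-0.23).

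Of 14 Eph receptors 12 were detected on both arrays, 6 above and 6 below 0. Their median was 0.10 with the bound of Epha10 and -0.04 without it. Epha2, the EphA receptor that binds Efna1 most readily, had 59.6 with valproate, 43.4 with DMSO and 44.2 with lamotrigine (0.46). Ephb6, an Eph protein without kinase activity, was the highest of the 12, with 726, 525 and 534 (0.47). In both genes the valproate level stood above a pair of close values. Epha7, a receptor that limits cortical dendrites and connections, was the lowest, with 41.3, 50.8 and 55.9 (-0.30). It turned to 0.05 under spike-in scaling.

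Epha10, which like Ephb6 has an inactive kinase domain, was well above background with valproate only, with 9.1 there and 4.06 and 4.58 on the DMSO and lamotrigine arrays, a bound of 0.78. The 5 EphB receptors had a median of -0.17, a sign that would turn with spike-in scaling, and Ephb1 (224, 194 and 191, difference 0.21) stood with Ephb6 above 0. Ephb2 (44.4, 49.8 and 47.6) and Ephb3 (2555, 2914 and 2984) lay at -0.17 and -0.19, with valproate the lowest array for each. Ephb4, which pairs with ephrin-B2 in vessels, gave -0.18 on its brightest probe and 0.39 on the other.

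The 5 Slits and Robos detected on both arrays ranged from -0.08 for Slit1 to 0.17 for Slit3. Among genes so detected this was the narrowest range of the 7 families. The bounds of Robo3 (1.72) and Robo4 (-0.92), described below, lie outside it. The 3 Slits were all detected. The ligand Slit1 had 784 with valproate, 827 with DMSO and 765 with lamotrigine, Slit2 had 165, 166 and 189, and Slit3 had 65.8, 58.6 and 55.4. Their main neuronal receptors were as close, Robo1 with 417, 436 and 378 (-0.06) and Robo2 with 147, 148 and 168 (-0.01). Under spike-in scaling Slit1 turned to 0.27, which is the median of all genes there.

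Robo3, the Robo family member that lets commissural axons cross the midline, had 17.5 with valproate, 4.88 with DMSO, which is not well above background, and 5.65 with lamotrigine. Only the valproate array stood well clear of the floor, and the bound against DMSO was 1.72. Its other probe was not well above background on any array. Robo4, the Robo protein of endothelial cells, is its neighbour on chromosome 9, with probes 2.8 kb apart on mm9. It had 3.58 with valproate and 3.8 with lamotrigine, neither well above background, and 7.38 with DMSO, a bound of -0.92 for valproate, so these adjacent genes lay on opposite sides of 0.

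Among the netrins and their receptors, 10 of 12 were detected with valproate and DMSO, 5 above and 5 below 0, with a median of 0.03. Unc5b, a netrin receptor that mediates repulsion and is also found in growing vessels, had 138 with valproate, 65.6 with DMSO and 92.5 with lamotrigine. Its difference of 1.07 was larger than the technical SD of 0.12, and it ranged from 0.89 with normexp correction to 1.42 with spike-in scaling. The other UNC5 receptors lay elsewhere: Unc5a had 987, 989 and 787 (0.00), Unc5c 122, 144 and 121 (-0.25), and Unc5d was below detection with valproate and DMSO (3.08 and 2.92). Neo1 (neogenin), a receptor for netrins and repulsive guidance molecules, had 350, 433 and 420 (-0.31), with the valproate level the lowest.

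Markers of endothelial and mural cells were set beside Efna1, Unc5b and Robo4, which such cells can express. Of 7 markers, 6 were detected with valproate and 4 on each other array, and Cldn5 was detected on none. The summed scaled signal was 884 with valproate, 778 with DMSO and 954 with lamotrigine, of which Kdr alone gave 764, 667 and 842. Flt1, a vascular growth factor receptor, had 27.4 with valproate and was not well above background with DMSO (3.94) or lamotrigine (4.55), a bound of 2.37. Cdh5, the cadherin of endothelial junctions, was at -0.45, Kdr at 0.20, Pecam1 at a bound of 0.24, Pdgfrb at -0.16 and Rgs5 at -0.12. Their part in the values of the 3 guidance genes was not tested.

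The ligand Ntng1 (netrin-G1) is a membrane-anchored cue that binds a synaptic adhesion partner and not Dcc. It is the member with the best technical resolution, since its brightest probe was printed 10 times. Its spots ranged from 145 to 157 with valproate (median 148), from 105 to 134 with DMSO (median 117) and from 110 to 122 with lamotrigine (median 117). The difference for valproate minus DMSO was 0.36. The technical SD of 0.09 at this level is that of a difference between single spots, while the Ntng1 levels are means of 10 spots. Another of its probes gave 0.31, and the last was detected on no array. How often spots of the other probes printed 10 times overlap between arrays was not counted. Repeat spots share 1 culture, so they compare the arrays and not the treatments. Ntn1, the attractant netrin-1, had 154, 137 and 149 (0.17), Ntn3 had 40.8, 51.7 and 49.2 (-0.34, or 0.01 with spike-in scaling), and the basement membrane protein Ntn4 had 6.93, 6.68 and 6.46 (0.05).

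Dcc, the attractive netrin receptor, could not be measured with certainty. Its brightest probe had 3491 with valproate, 3039 with DMSO and 2711 with lamotrigine (0.20), but the files place that probe on chromosome 7, annotate it to Gcm1 as well, and its 60 bases hold 17 copies in a row of 1 trinucleotide. The remaining pair of Dcc probes, on chromosome 18 with the gene, read 5.3, 6.61 and 5.39, detected with valproate only, and 0.847, 1.17 and 1.99, detected on no array. The values of the repeat probe are therefore not read as Dcc. Without probes placed off their gene's chromosome 62 members remained detected with both valproate and DMSO, the netrin family median moved from 0.03 to 0.00, and the counts past 2-fold were the same. Plxna2 was the only other member with a probe off its chromosome, and that probe (difference -0.14) differed little from its main one (-0.13).

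Where a member had several probes detected on both arrays, they did not always share a sign. That held for 18 members, and in 10 of them all probes had the same sign for valproate minus DMSO. The widest spread was 0.78 for Efna3, followed by 0.57 for Ephb4 and for Sema6d, whose probes gave -0.73 and -0.16. Unc5c gave -0.63 on its other probe and -0.25 on the brightest. No member had probes 1 log2 unit apart. Efna1, Unc5b, Plxnb3 and Sema3b rest on 1 detected probe each.

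**Figure D3:**
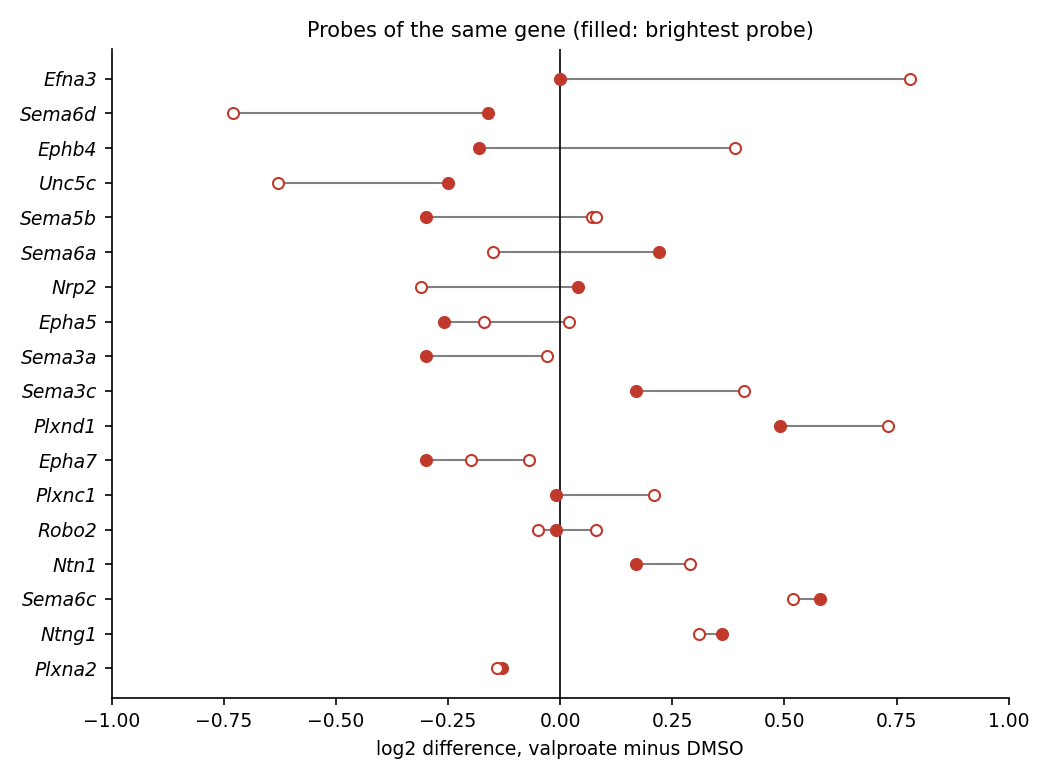
Log2 difference of valproate minus DMSO for each detected probe of the 18 members with several such probes, with the brightest probe filled and the others open. The probes of Efna3 (0.00 and 0.78) and Ephb4 (-0.18 and 0.39) are far apart, while those of Sema6c (0.58 and 0.52), Ntng1 and Plxna2 nearly coincide.

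Known ligand-receptor pairs can be set side by side for valproate against DMSO. Efna1 and its receptor Epha2 were both above DMSO (1.28 and 0.46), as were Sema3e and Plxnd1 (0.46 and 0.49). The dim probes of Efna1 and Sema3e gave 0.34 and 0.05 with normexp correction. Sema5a and Plxnb3 lay on opposite sides (0.36 and a bound of -1.60), as did Sema4d and Plxnb1 (0.17 and -0.69). Ntn1 was at 0.17 beside 1.07 for Unc5b. Ligands as a class had a median of 0.02 and receptors of -0.06, next to -0.07 over all genes.

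Other parts of the pathway were taken from a list of 62 cytoplasmic and membrane effectors, such as the collapsin response mediators and adhesion co-receptors. Of the 61 that both arrays detected, 20 were above and 41 below 0, where 39.5% of all genes were above, and the median was -0.18 against -0.07 over all genes. At least 2-fold higher was 1 effector (2.11% of all genes) and at least 2-fold lower were 0 (1.42%). Mical2, of a family of actin-oxidising enzymes downstream of plexins, had 17.9 with valproate, 7.88 with DMSO and 9.81 with lamotrigine (1.18). Vav3 was next (0.85). Dpysl2, the main collapsin response mediator (-0.62), and Nrcam, an adhesion molecule of the Sema3 receptor complex (-0.59), were the lowest. Of 10 neuron markers, 7 were below 0 and 3 above it (Nefm 0.60, Snap25 0.17 and Nefl 0.15). Their median was -0.29, a sign that would turn with spike-in scaling. Their summed scaled signal was 24661 with valproate against 32872 with DMSO, and their part in the effector values was not tested.

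Lamotrigine was compared with the same DMSO array. According to the labels it belonged to separate work on antiepileptic drugs. Differences were small: Efna1 was the highest member (0.82) and Efna2 the lowest (-0.51) among 63 detected on both arrays. The probe of Efna1 is dim, and with normexp correction it was at 0.25, below Unc5b (0.36) and Sema3b (0.27). Of the 63 members 0 were at least 2-fold higher, where the background was 0.0976% of 14340 genes, and 0 were at least 2-fold lower, where it was 0.0628%. None of the 4 bounds passed 2-fold, against 4.17% of 647 upwards and 1.85% downwards. In all 25 of the 63 members were above 0 (background 40.1%), the median was -0.05 against -0.04 over all genes, and the median absolute difference was 0.14 against 0.13.

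Efna1 was above DMSO on both drug arrays, with the 3 levels in the order valproate, lamotrigine, DMSO. Unc5b had the same order, at 0.49 for lamotrigine minus DMSO (with normexp correction 0.36, and 0.25 for Efna1). These comparisons share the DMSO array, so a low DMSO value would move both. Sema3c (0.37) and Sema3b (0.34), both secreted semaphorins, were the next highest members detected on both arrays. Among receptors, Epha8 had 329 with lamotrigine against 452 with DMSO (-0.46) and Epha6 had 20.2 against 27.2 (-0.43).

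By family, the class 3 semaphorins had a median of 0.19 with lamotrigine and the plexins and neuropilins of -0.02. All 3 plexin-B genes were above 0, with Plxnb2 highest (0.24). The membrane-bound semaphorins had a median of -0.14, with 9 of 13 below 0, and the median became 0.06 under spike-in scaling, which added 0.20 to every difference and brought all genes to 0.16. Eph receptors had a median of 0.00, ephrins -0.09, Slits and Robos -0.08, and netrins and their receptors -0.05. The bounds were those of Ntng2, which was below detection with lamotrigine (5.04 against 7.64, bound -0.60), Robo4 (-0.67), Unc5d (7.08 against 2.92, bound 0.42) and Robo3 (0.09). The 62 effectors had a median of -0.09, with 20 of 61 above 0 (40.1% of all genes).

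Valproate and lamotrigine were then set against each other, a comparison that shares an array with each of the others. Robo3 was 3.1-fold higher (1.63) and Sema3b 2.33-fold lower (-1.22) with valproate, and Plxnb3 was at least 3.41-fold lower (-1.77). With normexp correction Robo3 was at 0.65 and Sema3b at -0.99, both under 2-fold. Of the 63 members that both arrays detected, 1 reached 2-fold upwards (background 2.06% of 14544 genes) and 1 downwards (background 1.69%). Of 4 bounds 0 passed 2-fold upwards (background 12.9% of 828) and 1 downwards (10.7%). The median was 0.04 over the members and -0.03 over all genes, and 34 of 63 members were above 0 (background 45.3%).

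Sema3b separated the drugs more than either separated from DMSO, since DMSO (99.4) lay between valproate (54.0) and lamotrigine (126). Sema3e, with 18.0 against 10.6 (0.76, or 0.25 with normexp correction), Sema6c (0.74), Epha8 (0.70), Efna4 (0.64) and Sema5a (0.61) were higher with valproate. Plxnb1 was at -0.88. All 5 ephrin-A ligands were above 0, with a median of 0.37. With normexp correction Efna1 was at 0.09 and Efna2 at 0.00. Spike-in scaling added 0.15 to every difference, so it could not turn a value above 0. The plexins and neuropilins had a median of -0.14, with 8 of 10 below 0, which became 0.01 under spike-in scaling. The Eph receptors had a median of 0.15, the membrane-bound semaphorins of 0.00, and the netrins and their receptors of 0.10. Epha10 had a bound of 0.97 and Unc5d of -0.86.

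The sizes of the differences among members were set beside those of all genes detected on the same arrays. A difference of at least 0.5 was seen in 9.52% of members and 16.2% of all genes for valproate against DMSO, in 3.17% and 3.24% for lamotrigine against DMSO, and in 15.9% and 16.0% for valproate against lamotrigine. At 0.25 the shares were 39.7% and 43.9%, 20.6% and 19.5%, and 41.3% and 40.3%. At 0.15 the members had the larger shares: 74.6% and 63.9%, 47.6% and 42.4%, and 68.3% and 59.7%. This did not hold for all small differences. At 0.05 the shares were 88.9% and 88.0%, 77.8% and 78.9%, and 84.1% and 85.2%. The 5 genes named at the start carried the differences past 2-fold.

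**Figure D4:**
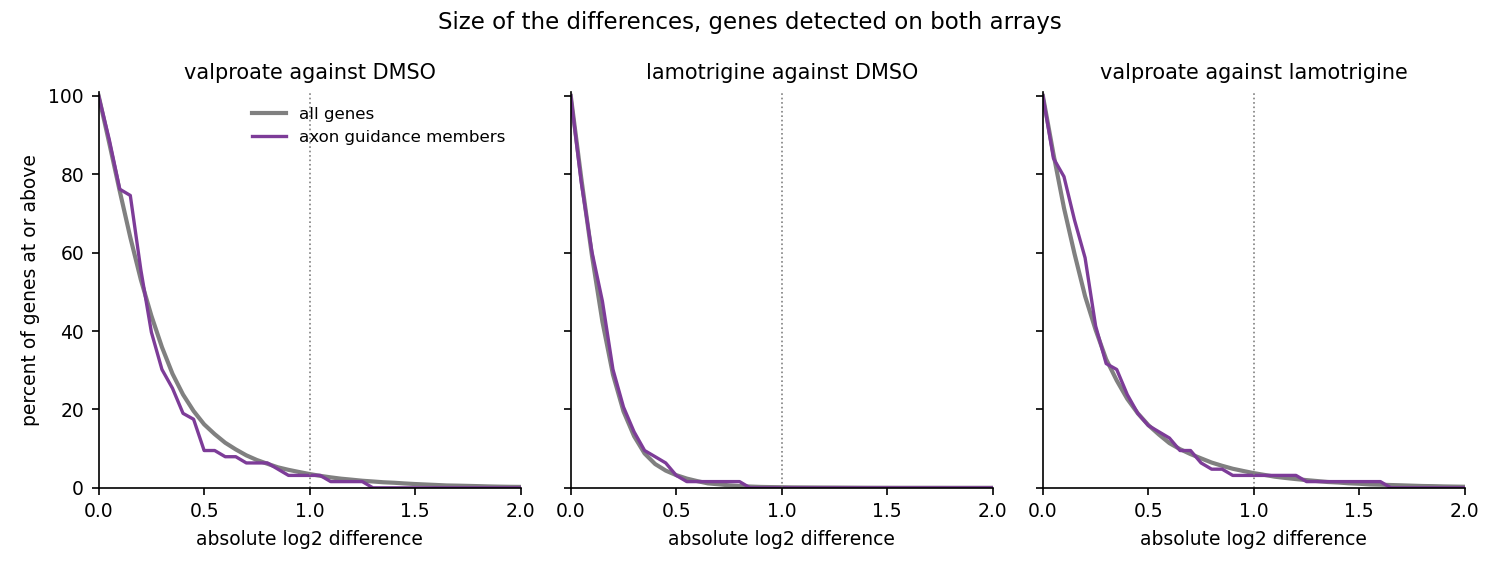
Percent of genes (vertical axis) whose absolute log2 difference is at or above the value on the horizontal axis, for the 63 members detected on both arrays and for all genes, in each comparison. In valproate against DMSO the curves are nearly level at 0.1 (76.2% for members against 75.7%). The member curve is the higher at 0.15 (74.6% against 63.9%) and the lower at 0.5 (9.52% against 16.2%).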

How the data were processed

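The authors deposited 1 scanner file per array and 1 table of the whole series. Per the file headers, spot intensity was read with Feature Extraction 10.7.1.1 and the processed signal is background-subtracted within an array. Per the labels, total RNA was isolated with TRIzol and labelled with Cy3. The deposited table holds intensity values whose columns share 1 distribution, and served as an alternative.

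Processed signals of 59305 non-control spots were scaled on the 75th percentile of each array after outlier spots were left out, spots of a probe were averaged as log2, and a gene took its brightest probe. Gene names came from the files and a RefSeq table. Python 3.11.15, R 4.3.3 and limma 3.58.1 (normexp, offset 50) were used, and the steps were tested on simulated data. Genes at least 2-fold apart are counted as a description. Members and lists were chosen with earlier results of these data known. The rule for named genes took members at least 2-fold apart, those detected on 1 or 2 arrays, the highest and lowest of each family with valproate against DMSO, and the extremes of the effector and marker lists. Other members were named after their values were seen. Alternatives were quantile, median and spike-in scaling, normexp, the deposited table, other detection and probe rules, outliers kept and thresholds of 1.5-fold and 3-fold. Leaving out off-chromosome probes was added after seeing the data.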

Additional observations from a re-analysis of the deposited data

How the results depend on the processing

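Counts of members past 2-fold were small and moved with the settings. For valproate against DMSO the 2 higher members became 0 with normexp correction, 5 without a detection filter and 0 at 3-fold, and the 0 lower became 2 without the filter and 2 at 1.5-fold. For lamotrigine against DMSO the 0 higher became 1 with spike-in scaling, 2 without the filter and 1 at 1.5-fold. For valproate against lamotrigine the 1 higher became 0 with normexp, 0 with detection on all 3 arrays, 2 without the filter and 6 at 1.5-fold, and the 1 lower became 0, 3 and 2 with normexp, no filter and 1.5-fold, and 0 at 3-fold. Over all genes the 302 higher and 203 lower of valproate against DMSO became 744 and 77 with spike-in scaling, 111 and 80 with normexp, 864 and 1095 without the filter, 900 and 850 at 1.5-fold, and 75 and 34 at 3-fold. Spike-in scaling set the member medians to 0.34, 0.15 and 0.18 for valproate against DMSO, lamotrigine against DMSO and valproate against lamotrigine. For valproate against DMSO it set the Eph receptors to 0.44, Slits and Robos 0.34, ephrins 0.37, membrane-bound semaphorins 0.19, netrins and their receptors 0.37, plexins and neuropilins 0.22 and class 3 semaphorins 0.51. It turned the membrane-bound semaphorins to 0.06 for lamotrigine against DMSO, and the plexins and neuropilins to 0.01 for valproate against lamotrigine. Other settings moved valproate against DMSO medians: Eph receptors to -0.04 with detection on all 3 arrays, ephrins to 0.14 with the mean of probes, membrane-bound semaphorins to -0.01 with quantile normalization, -0.01 with the authors' deposited table and -0.05 with the mean of probes, netrins to -0.08 with normexp, and class 3 semaphorins to 0.05 with normexp and 0.29 with the mean of probes. Normexp turned the Eph receptors to -0.01 for valproate against lamotrigine. Causes of these moves were not tested. Median centring, outliers kept and off-chromosome probes left out moved no count, median or named member by more than its technical spread. Dim probes limit Efna1, Robo3 and Plxnb3, which lie near the detection floor on at least 1 array. No paired analysis was possible because each treatment has 1 array and no fit can be made.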

Other observations

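Draxin, a secreted repellent that binds Dcc, is on the array under an older symbol and so lies outside the naming rule. Its scaled signal was 6.89 with valproate, 9.73 with DMSO and 7.11 with lamotrigine, all well above background, with log2 differences of -0.50 for valproate minus DMSO and -0.45 for lamotrigine minus DMSO. These share the DMSO array. Between Sema3b and Sema3f on chromosome 9 lie 3 genes with probes, of which Slc38a3, a glutamine transporter, had 530 with valproate, 810 with DMSO and 664 with lamotrigine (-0.61), and Gnai2, a G protein subunit, had 4375, 3708 and 3589 (0.24).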
